A study of Arabidopsis thaliana with 16 samples.

Results

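Wild-type Arabidopsis seedlings were compared at 12 h after dexamethasone and at 0 h. The comparison comprised 8 of the 16 RNA-seq libraries of the series, 4 untreated libraries at 0 h and 4 libraries taken 12 h after 100 µM dexamethasone, chosen by their genotype and time labels alone. All seedlings were 7 days old after germination at treatment and had grown in shaken liquid Murashige and Skoog medium with sucrose. The wild type carries no transgene. The other 8 libraries are from a homozygous line with ATML1pro:GR-SPCH1-4A-YFP, called the inducible line here, in which an epidermal promoter drives a glucocorticoid receptor fusion of the stomatal factor SPEECHLESS (SPCH), sampled at the same 0 h and 12 h. No untreated group at 12 h was analysed here. Dexamethasone, its solvent, the handling at treatment and the elapsed 12 h therefore cannot be told apart in either line, and the time of day is not given in the sources used here.

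Dexamethasone is a synthetic glucocorticoid. Plants have no glucocorticoid receptor of the animal kind, and the compound is used in plant research to release a receptor fusion into the nucleus. A wild-type series with the same treatment measures what the treatment and the waiting time do when there is no fusion to release. Submerged and shaken seedlings can meet low oxygen, mechanical stimulation and a changing medium, each of which has a well-described set of responsive genes in this species.

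Values are reads per gene divided by 1 size factor per library, called normalised reads, and are given in the order of replicates 1 to 4. Replicates 1 and 2 of every group were sequenced in 1 lane and replicates 3 and 4 in a second. Total reads per library ran from 16590689 to 22944391 at 0 h and from 16251477 to 18888133 at 12 h in wild type. Changes are 12 h minus 0 h on the scale log2(normalised reads + 1), estimated with limma in 1 fit of all 16 libraries with a term for lane. A gene counts as called at a Benjamini-Hochberg adjusted p below 0.05 over the 20756 genes tested, and "rose" and "fell" are used of called genes only. No label states that replicates were grown as separate cultures. The p-values therefore refer to the spread among the sequenced libraries, part of which may be technical. The gene lists below and their members were chosen with earlier results of these data known. Their counts, set beside the shares of all tested genes, are therefore descriptions.

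In wild type 3014 of 20756 genes were called (14.5%), of which 1387 rose (6.68%) and 1627 fell (7.84%). The median absolute change of the called genes was 0.53 log2 units, and 366 changed by at least 1 unit, 206 upward and 160 downward. In 1453 called genes the 4 libraries at 12 h did not overlap the 4 at 0 h, and over all tested genes this held for 9.23%. The quasi-likelihood test of edgeR on the recovered read counts called 3065 genes. Without the lane term 980 genes were called. Fits with fewer libraries called 1570 in the wild-type libraries alone with the lane term, 187 in lane 1 alone and 1140 in lane 2 alone. Leaving out replicate 4 at 0 h gave 1867 called genes and leaving out replicate 4 at 12 h gave 1819.

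SPCH was checked first, since the other line was built to change it. The wild-type libraries held 69.8, 56.1, 67.3 and 60.5 normalised reads of SPCH at 0 h and 59.0, 68.5, 63.3 and 72 at 12 h. The groups overlapped fully, and the change was 0.05 ± 0.15 (SE, adjusted p = 0.85). Markers of other tissues were read in the same libraries. The summed levels of 4 root hair markers spanned 1070 to 2400 at 0 h and 1210 to 2330 at 12 h, those of 4 endodermis markers 1180 to 1750 and 1260 to 1820, and those of 3 leaf mesophyll markers 238000 to 348000 and 222000 to 305000. The sums of 3 epidermis markers were 8840 to 14300 and 8110 to 11200, and those of 4 guard cell markers 547 to 822 and 707 to 935. Sums of 3 vascular markers were 1110 to 1580 at 0 h and 1530 to 2320 at 12 h, and those of 3 pollen markers, 2 of which were at 0 in every wild-type library, were 383 to 454 and 282 to 371. Of these sums those of the pollen markers did not overlap between the groups. With the other 2 markers at 0, that sum is the level of ACT11 alone and cannot be read as a pollen level. Of the single markers, SUC2 (vascular) rose by 0.59 log2 units and KAT1 (guard cell) by 0.61. FDH (epidermis) fell by 0.44, RCA (mesophyll) by 0.57 and ACT11 (listed for pollen) by 0.37, with adjusted p from 0.0083 to 0.046. The other tested markers of these tissues were not called. Changes were 0.13 for PDF1 (epidermis), 0.003 for APL (vascular), 0.09 for FAMA (guard cell) and -0.08 for RBCS1A (mesophyll), for example. The part of tissue composition in the results below was not tested, and in RNA from whole seedlings fewer cells of a type and less RNA per cell cannot be told apart.

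**Figure D1:**
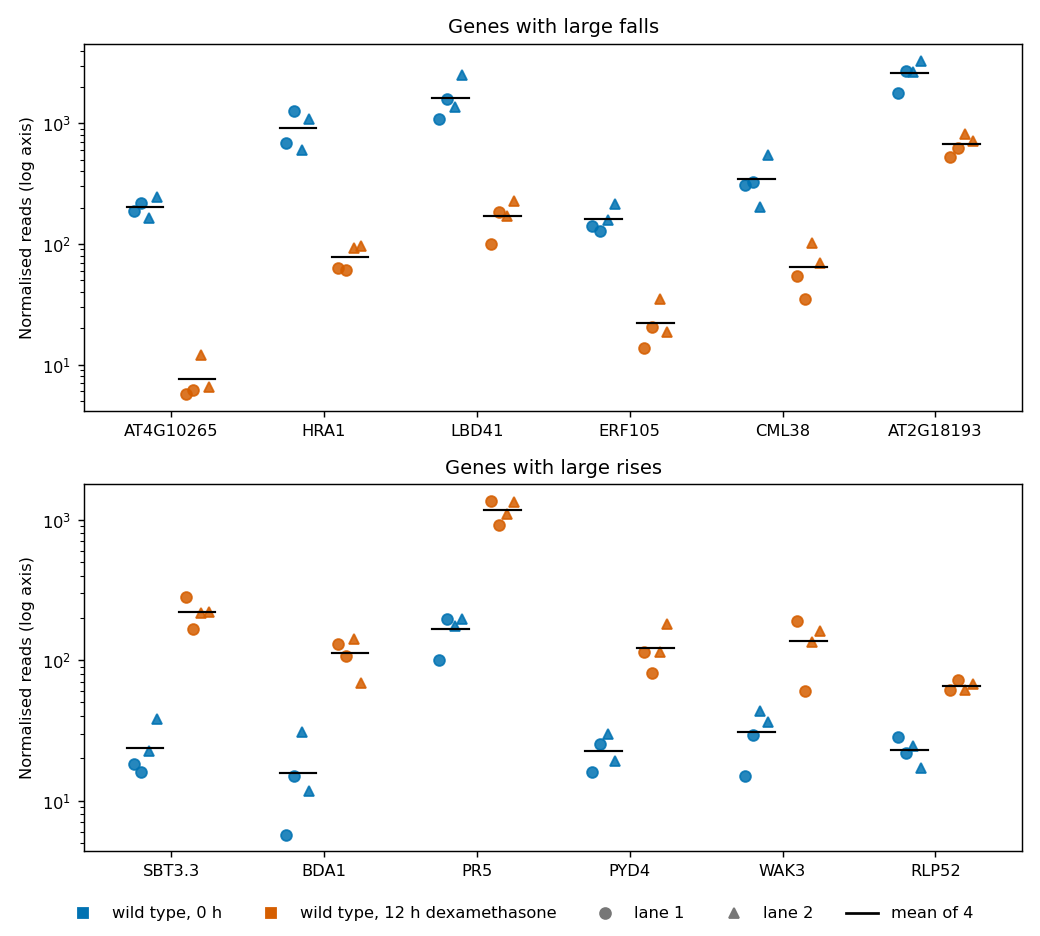
Normalised reads per library (log axis) of 6 genes that fell (top) and 6 that rose (bottom) in wild type, at 0 h (blue) and 12 h (orange), with circles for lane 1, triangles for lane 2 and bars for the mean of 4. No gene shown has overlapping groups, from the 24.5-fold lower level of AT4G10265 to the 2.82-fold rise of RLP52.

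The largest falls were in genes of the low-oxygen response. Plants sense oxygen through group VII ethylene response factors, which plant cysteine oxidases mark for degradation while oxygen is present. When oxygen falls the factors persist and switch on a core set of genes, among them fermentation enzymes and their own attenuators. Of 51 measured members of a low-oxygen list of 53, 19 fell and 3 rose, against 7.84% and 6.68% of all tested genes, and the median change was -0.60 log2 units against 0.00 over all genes. Within lane 1 the median was -0.70 and within lane 2 -0.51, and the fit of lane 1 alone called 16 falls while that of lane 2 alone called 8.

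The attenuator HRA1 (AT3G10040), a trihelix protein that restrains the ethylene response factor RAP2.12, stood at 687, 1274, 602 and 1075 normalised reads at 0 h and at 63.5, 60.3, 92.4 and 96.3 at 12 h. All 4 libraries at 12 h lay far below the lowest at 0 h. The level was 11.2-fold lower, a change of -3.49 ± 0.23 (SE, adjusted p = 2.2e-07). LBD41, a LOB-domain protein of the core response, went from 1084, 1600, 1352 and 2488 to 99.8, 184, 171 and 225. Again the groups were far apart, and the change was -3.24 ± 0.32 (adjusted p = 3.6e-05).

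AT4G10265 and AT4G10270, neighbouring members of the wound-responsive protein family, were both among the 12 largest falls. AT4G10265 went from 189, 218, 164 and 245 normalised reads to 5.67, 6.14, 12.1 and 6.54, a level 24.5-fold lower (adjusted p = 5.8e-06). AT4G10270 went from 433, 501, 723 and 1131 to 43.1, 73.6, 93.4 and 157, or 7.77-fold lower (adjusted p = 8.6e-05). These genes are similar and adjacent, and how reads aligning to both were counted is not stated in the labels, so the split of reads between them is uncertain. AT1G33055, of unknown function, fell by 3.73 log2 units from 271, 226, 167 and 363 to 9.07, 33.8, 11.1 and 28.0 (adjusted p = 0.00057).

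Members that act in the oxygen-sensing loop fell as well. ERF73 (HRE1), a group VII factor whose own transcript is raised by low oxygen, went from 327 ± 90.7 (SD, n = 4) to 159 ± 19.1 normalised reads (adjusted p = 0.0051). The plant cysteine oxidase gene PCO1 (AT5G15120), which feeds back on the factors, went from 292 ± 82.1 to 130 ± 38.1 (adjusted p = 0.0092). The groups did not overlap for either gene. Other members that fell with no overlap included the thioredoxin gene ACHT5, 3.02-fold lower, the mitochondrial carrier gene AT5G26200, 1.81-fold lower, and AT3G23170 and AT4G24110, 3.53-fold and 3.73-fold lower.

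The fermentation end of the pathway showed no call in the same direction. ADH1, alcohol dehydrogenase, stood at 255.8 ± 125.6 at 0 h and 165.4 ± 45.72 at 12 h (change -0.55 ± 0.47, adjusted p = 0.48), and the pyruvate decarboxylase gene AT4G33070 at 331.8 ± 163.2 and 148.6 ± 13.66 (-1.01 ± 0.47, adjusted p = 0.18). The haemoglobin gene HB1 had 1035 ± 140.5 and 631.8 ± 141.8 (adjusted p = 0.17). The groups of HB1 did not overlap, while those of ADH1 and AT4G33070 did. The standard errors were 0.34 to 0.47 log2 units, so changes of this size were not detectable with these libraries, which does not show that they are absent. The 3 members that rose were PDC2, whose call was lost without replicate 4 at 0 h (adjusted p = 0.051), AT3G13310 of the DnaJ chaperone class (1.59 ± 0.17, adjusted p = 1.5e-05) and the leucine-rich repeat gene AT2G15880 (1.57 ± 0.26, adjusted p = 0.00059).

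**Figure D2:**
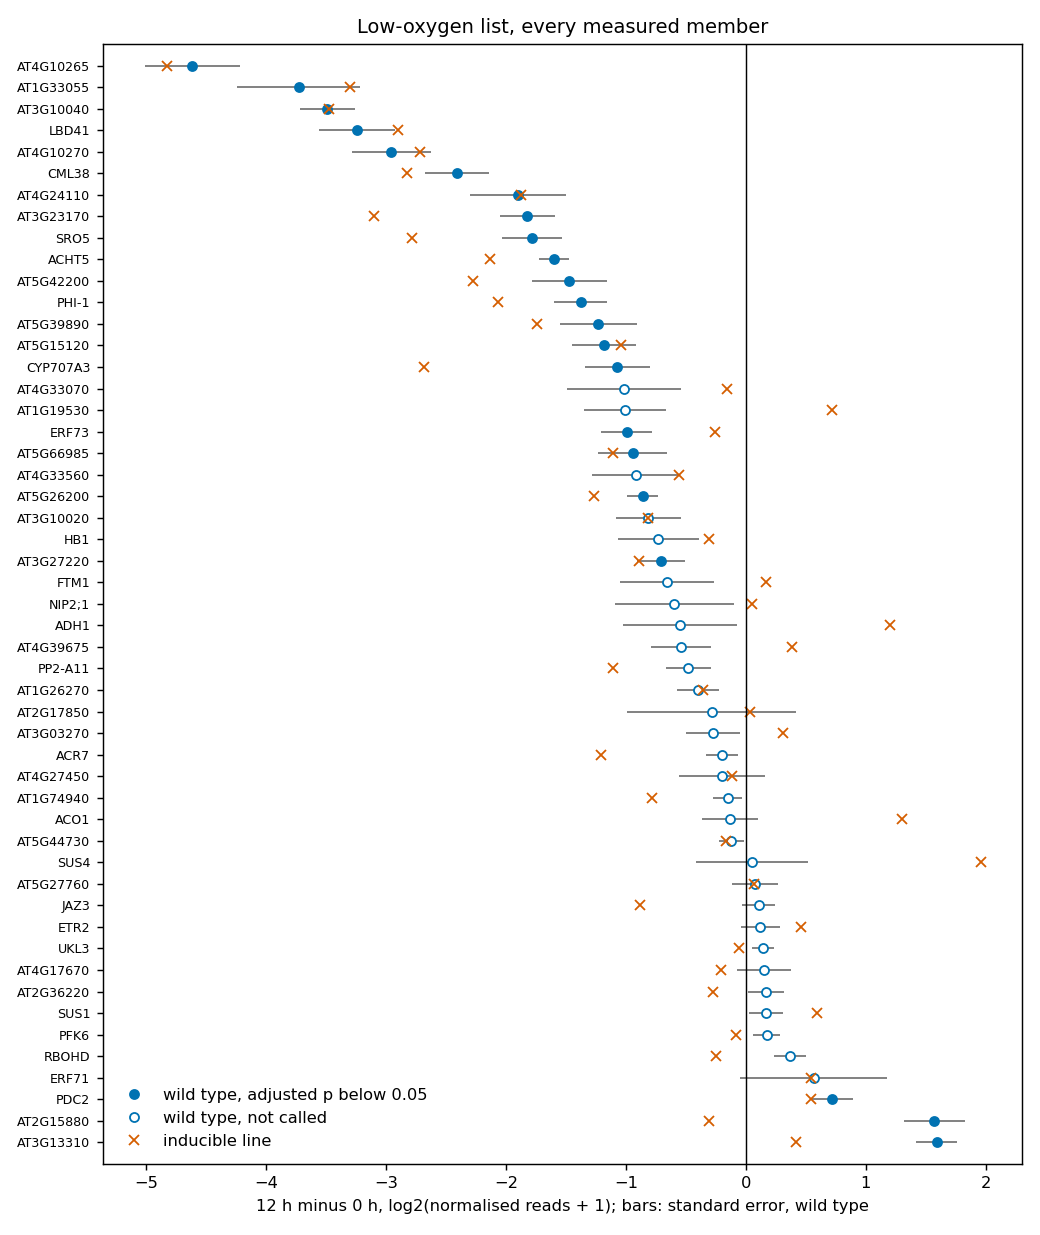
Change from 0 h to 12 h in log2(normalised reads + 1) for every measured member of the low-oxygen list, with the wild type as circles (filled where called, bars giving the standard error) and the inducible line as crosses. In wild type 37 of 51 changes are negative, from -4.61 at AT4G10265, and the highest is 1.59 at AT3G13310.

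A promoter of a low-oxygen gene that fell is shown because the group VII factors bind a known element in such promoters. This hypoxia-responsive promoter element was searched on both strands in the 300 bases before the annotated start of 20640 tested genes (RefSeq annotation, TAIR10.1). It occurred in 208 of all these windows (1.01%), in 4 of the 51 low-oxygen members and in 2 of the 19 that fell, among them AT4G10270. Capitals mark the element in the AT4G10270 window, chr4:6374434-6374733 on the plus strand. In AT4G10270 the first base of the element lay 230 and 100 bases before the start. The matches describe letters and show no binding.
AT4G10270: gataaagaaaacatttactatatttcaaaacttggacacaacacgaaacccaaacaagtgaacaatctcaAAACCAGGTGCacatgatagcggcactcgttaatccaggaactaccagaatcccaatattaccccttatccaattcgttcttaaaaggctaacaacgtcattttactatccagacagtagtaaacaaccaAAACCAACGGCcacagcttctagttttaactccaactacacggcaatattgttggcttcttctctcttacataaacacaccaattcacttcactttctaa

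Genes that answer touch, calcium and microbial patterns within minutes formed a second group of falls. Of 13 measured genes on a touch and calcium list of 14, 9 fell (69.2% against 7.84% of all tested genes) and none rose. The median change was -0.73 (-1.05 in lane 1 and -0.40 in lane 2). CML38, a calmodulin-like protein that is also on the low-oxygen list, went from 310, 329, 202 and 544 to 54.4, 34.8, 101 and 69.2 normalised reads, and its groups did not overlap (-2.41 ± 0.27, adjusted p = 3.6e-05). TCH2, the calmodulin-like touch gene, went from 961 ± 150 to 474 ± 53.1 (adjusted p = 3.6e-05), and CAF1a, a subunit of an mRNA deadenylase, from 614 ± 109 to 238 ± 36.0 (adjusted p = 8.2e-05). The touch gene TCH3 and the zinc finger gene STZ also fell, 1.43-fold and 2.17-fold. The fit of lane 1 alone called 5 falls on this list and that of lane 2 alone called 2.

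On a list of 33 pattern-triggered immunity genes 12 fell (36.4% against 7.84% of all tested genes). The 2 that rose are 6.06% of the list, near the 6.68% of all tested genes. Its median change was -0.04, near that of all genes, with -0.25 in lane 1 and 0.19 in lane 2, so the sign of the median differed between lanes and the called falls do not describe the list as a whole. ERF105 (AT5G51190), an ethylene response factor, went from 142, 129, 158 and 213 normalised reads to 13.6, 20.4, 35.1 and 18.7. Its 12 h libraries all lay far below the lowest 0 h library, and the change was -2.87 ± 0.23 (adjusted p = 2.5e-07). ERF104, a target of the immune MAP kinase MPK6, went from 258, 366, 284 and 397 to 37.4, 49.1, 88.4 and 88.8 (adjusted p = 1.2e-06).

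ERF6 was 3.19-fold lower and HSPRO2, whose beet relative gives nematode resistance, 4.08-fold lower. The defence transcription factors WRKY33 and WRKY22 fell 1.66-fold and 1.87-fold, and RHL41 (ZAT12) 1.92-fold. The 2 members that rose are receptors: FRK1, a receptor kinase gene used as a flagellin marker, went from 43.5, 21.8, 62.0 and 51.0 to 125, 87.9, 129 and 122 (adjusted p = 0.014). EFR, the receptor for bacterial elongation factor Tu, went from 270 ± 61.8 to 443 ± 92.5 (adjusted p = 0.0055). Without the lane term 7 falls on this list were called, with 7 in lane 1 alone and 3 in lane 2 alone. This list and the touch and calcium list share members that fell, among them STZ and WRKY33, which are in both counts.

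Further genes among the 12 largest falls belong to neither list. OXS3, an oxidative stress protein, went from 810, 444, 545 and 458 to 109, 125, 68.3 and 102 normalised reads (5.50-fold lower, adjusted p = 1.7e-07). AT5G21940 had the smallest adjusted p of the genes named here, 1.0e-09, with 3727, 3207, 2559 and 3639 at 0 h and 667, 802, 708 and 599 at 12 h. AT5G35777, annotated as uncharacterised, fell 6.56-fold (adjusted p = 0.00059). Its replicate 1 at 0 h stood apart at 280 against 95.1 to 114 in the others, and in the fit without lane 2 it was not called.

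Among genes with a mean of at least 50 normalised reads and no overlap between groups, the largest rises included immune genes that act with salicylate, the hormone of resistance to biotrophic pathogens. Of 33 members of a salicylate list 7 rose and none fell (21.2% against 6.68% of all genes), and the median change was 0.16, with 0.14 in lane 1 and 0.18 in lane 2. SBT3.3, a subtilase that primes immunity, had 18.3, 15.9, 22.4 and 38.2 normalised reads at 0 h and 284, 167, 215 and 219 at 12 h. The lowest 12 h library lay well above the highest at 0 h, and the level was 9.32-fold higher (3.22 ± 0.23, adjusted p = 1.1e-07).

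PR5, a thaumatin-like antifungal protein, went from 99.5, 195, 174 and 196 to 1353, 909, 1103 and 1343, a 7.2-fold rise (adjusted p = 2.2e-05). BDA1 (AT5G54610, labelled ANK in the annotation), an ankyrin protein that acts with an immune receptor-like protein, went from 5.72, 15.1, 31.0 and 11.7 to 129, 107, 142 and 69.2 (adjusted p = 0.0001). Every 12 h library was above every 0 h library in both genes. LURP1, PR4 and the immunity regulator ACD6 rose 2.36-fold, 2.14-fold and 1.54-fold.

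The standard salicylate marker PR1, a pathogenesis-related protein, was not called. PR1 stood at 1087 ± 692.7 at 0 h and 902.6 ± 90.83 at 12 h (-0.07 ± 0.28, adjusted p = 0.90), and BGL2 (PR2), a glucanase, at 497.6 ± 220.7 and 624 ± 378.2 (adjusted p = 0.88). Of the 33 listed genes 26 did not pass, and 12 of the 33 changes were negative. The fit of lane 1 alone called 4 rises on the list.

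**Figure D3:**
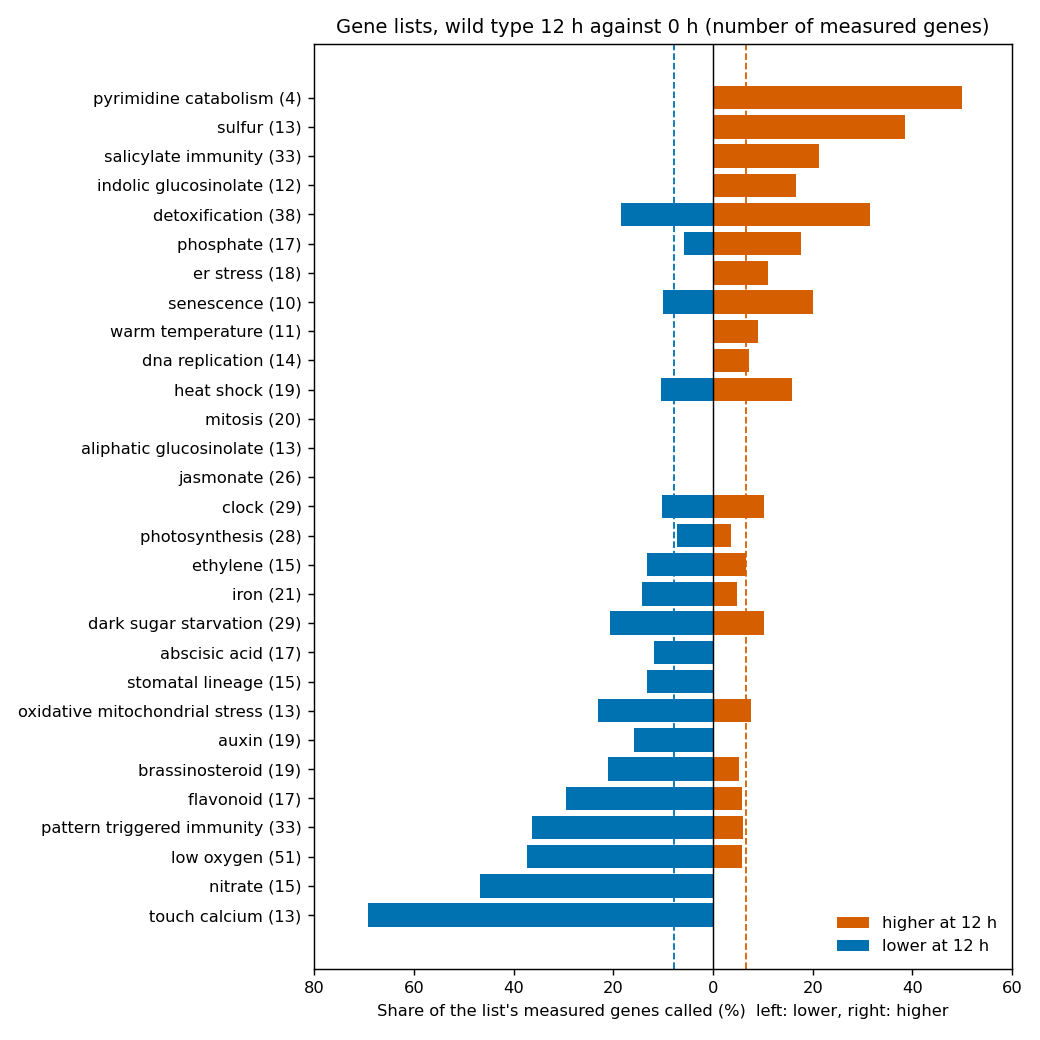
Share of the measured genes of each of 29 gene lists that was called higher (right, orange) or lower (left, blue) at 12 h in wild type, with dashed lines at the shares over all tested genes (6.68% and 7.84%). Touch and calcium genes have the largest share of falls, 69.2%, and the short lists of pyrimidine catabolism (50%) and sulfur (38.5%) the largest shares of rises.

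Some members of immune receptor families rose as well. The families were taken by the words of the RefSeq product names and were chosen after their values had been seen, so their counts are descriptions. Receptor-like proteins are cell-surface receptors without a kinase domain. Of 45 tested genes of 52 annotated 18 rose (40% against 6.68% of all tested genes) and none fell, with a median change of 0.51. RLP52 went from 28.6, 21.8, 24.6 and 17 normalised reads to 61.2, 72.6, 61.3 and 67.3 (adjusted p = 9.4e-05), and RLP19 from 633, 609, 536 and 413 to 1449, 1160, 984 and 1181 (adjusted p = 0.00021). Both genes had every 12 h library above every 0 h library, as did RLP54 (1.74-fold) and RLP31 (2.03-fold). The count was 10 without replicate 4 at 0 h and 11 without replicate 4 at 12 h, and 10 without the lane term.

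Intracellular receptors of the TIR-NBS-LRR class detect pathogen effectors. Of 77 tested genes of 88 annotated 19 rose (24.7% against 6.68% of all tested genes) and none fell, with a median of 0.29. RPP4, a downy mildew resistance gene in a cluster of similar genes, went from 1054, 945, 912 and 807 to 1817, 1967, 1544 and 1268 (adjusted p = 5.7e-05), and AT4G19520 rose 1.75-fold. Reads from similar members of such clusters may be shared. The count was 9 to 11 when replicate 3 or 4 at 0 h, or replicate 1, 2 or 4 at 12 h, was left out, and 4 without the lane term. Of 29 tested cysteine-rich receptor-like kinases 8 rose (27.6% against 6.68% of all tested genes) and 1 fell (3.45% against 7.84%). CRK7 led the rises and went from 30.9, 25.9, 43.8 and 31.9 to 136, 72.6, 95.4 and 113 (adjusted p = 7.7e-05). Without replicate 3 or without replicate 4 at 0 h 5 rises were called in this family.

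Other large rises included WAK3, a wall-associated kinase, with 14.9, 29.3, 43.8 and 36.1 normalised reads at 0 h and 189, 60.3, 135 and 161 at 12 h (adjusted p = 0.00025). CYP71A12, a cytochrome P450 of indolic defence compounds, went from 217, 261, 212 and 206 to 433, 2094, 910 and 901 (adjusted p = 0.013). Its 12 h libraries were spread over a wide range, all above 0 h. The chitinase-family gene AT2G43590 went from 1371 ± 489 (SD, n = 4) to 4744 ± 1169, without overlap (adjusted p = 0.027). That call was lost when replicate 1, 3 or 4 at 0 h, or replicate 1, 2 or 4 at 12 h, was left out (highest adjusted p = 0.074).

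AT1G75900, a GDSL lipase, rose 4.05-fold and the germin-like gene GLP4 4.84-fold, while AT3G04300 and the receptor-kinase-related AT3G22060 rose 4.52-fold and 3.66-fold. The locus of the microRNA precursor MIR167d went from 48.0, 45.2, 54.5 and 21.2 to 150, 188, 126 and 143 (adjusted p = 0.00013). Poly-A reads at that locus count the precursor transcript or an overlapping one and not the mature microRNA. Of 156 tested P450 genes 25 rose and 8 fell. Without the lane term the counts were 16 and 3, in lane 1 alone 3 and 1, in lane 2 alone 15 and 2, and without replicate 3 at 0 h there were 5 falls. A run of neighbours on chromosome 3, CYP71B19, CYP71B20, CYP71B22 and CYP71B24, rose 2.92-fold, 1.72-fold, 3.02-fold and 1.88-fold, each with no overlap between groups, although reads could be shared among these similar genes.

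A group of nuclear genes that respond to disturbed mitochondria held many falls. When mitochondrial respiration is disturbed, membrane-tethered NAC factors are released and bind a shared promoter motif in a small regulon that includes alternative oxidase. Of 16 genes of this regulon, assembled after values had been seen, 10 fell (62.5% against 7.84% of all tested genes) and none rose. Their median change was -0.62 (-0.60 in lane 1 and -0.79 in lane 2). Without replicate 4 at 0 h 6 falls were called, without replicate 2 at 12 h 5, and in lane 1 alone 1. In the inducible line, where 6.04% of all tested genes fell, the median change of these genes was -0.02 and 1 fell. The difference of the change between the lines was called in 5 of the 16, against 2.82% of all tested genes. On the planned list of oxidative and mitochondrial stress 3 of 13 measured genes fell (23.1%) and 1 rose (7.69% against 6.68% of all tested genes). Its median change was -0.15. Its falls, AT2G21640, AOX1A and BCS1, are also among the falls of the regulon, so the 2 counts are not separate evidence. The regulon was picked with values seen, so the sizes of the 2 shares cannot be compared.

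AT2G21640, known as UPOX, a marker of oxidative stress in mitochondria, had 168, 170, 359 and 354 normalised reads at 0 h and 82.8, 98.2, 112 and 139 at 12 h. Lane 2 was higher than lane 1 at 0 h, and the 12 h libraries lay below both lanes (-1.20 ± 0.13, adjusted p = 1.8e-05). In the inducible line its change was -0.14, and the change differed between the lines by -1.06 (adjusted p = 0.0051). AT2G18193, an AAA-type ATPase gene outside the regulon list, went from 1781, 2721, 2681 and 3301 to 523, 627, 812 and 713 (3.87-fold lower, adjusted p = 1.1e-05), with a difference between lines of -1.51 (adjusted p = 0.0069). Its neighbour AT2G18190 fell 5.56-fold, and as similar genes the pair may share reads.

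AOX1A, the alternative oxidase itself, went from 719, 628, 1052 and 1030 to 625, 467, 636 and 580 (adjusted p = 0.014). The groups overlapped by 1 library when the lanes were pooled, and the call was lost without replicate 3 or replicate 4 at 0 h or replicate 2 at 12 h (highest adjusted p = 0.055). NAC13, one of the tethered factors, had a change of -0.42 ± 0.15 that was not called (adjusted p = 0.066). The sulfotransferase gene SOT12, AT2G41730 and AT2G32020 fell 1.62-fold, 2.09-fold and 2.60-fold. SRO3 and AT5G13210, picked from the large falls after values were seen, fell 3.61-fold and 3.35-fold.

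The mitochondrial dysfunction motif of this regulon was searched on both strands in the same 300-base windows. It occurred in 360 of 20640 windows (1.74%), in 5 of the 16 genes and in 4 of the 10 that fell. These genes were listed for a response that is known to run through the motif, so the share is no independent finding. The windows of AT2G21640, chr2:9254078-9254377 on the plus strand, and AT2G18193, chr2:7919346-7919645 on the minus strand, are shown since both falls differed between the lines, with the motif in capitals.
AT2G21640: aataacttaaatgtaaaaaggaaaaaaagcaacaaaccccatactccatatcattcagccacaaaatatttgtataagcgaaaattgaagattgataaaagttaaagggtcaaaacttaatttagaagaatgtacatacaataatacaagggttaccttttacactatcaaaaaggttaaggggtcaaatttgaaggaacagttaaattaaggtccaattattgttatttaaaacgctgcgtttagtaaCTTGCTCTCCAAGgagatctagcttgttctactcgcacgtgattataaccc
AT2G18193: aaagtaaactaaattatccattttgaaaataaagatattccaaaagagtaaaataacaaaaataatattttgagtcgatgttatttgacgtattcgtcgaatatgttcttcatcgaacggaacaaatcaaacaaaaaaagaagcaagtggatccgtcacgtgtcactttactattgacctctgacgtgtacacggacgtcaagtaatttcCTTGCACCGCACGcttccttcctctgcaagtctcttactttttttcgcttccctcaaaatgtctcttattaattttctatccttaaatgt

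Detoxification genes went both ways. Of 38 listed genes 12 rose (31.6% against 6.68% of all tested genes) and 7 fell (18.4% against 7.84%), with a median change of 0.05. The risers included glutathione S-transferases, which conjugate foreign compounds: GSTF7 went from 1410, 1142, 2523 and 1180 normalised reads to 3066, 3527, 2745 and 4547 (adjusted p = 0.0068), and its near-identical neighbour GSTF6 may share its reads. The transporter gene ABCG40 rose 3.06-fold and the reductase gene OPR2 1.59-fold. The count of rises was 7 without replicate 4 at 0 h, 5 without replicate 1 at 12 h, 6 without replicate 4 at 12 h, 5 without the lane term and 0 in lane 1 alone.

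The fallers were led by efflux carriers of the MATE family and by conjugating enzymes. AT2G04050, which is also counted in the mitochondrial regulon above, went from 1440, 958, 1541 and 1530 to 337, 407, 425 and 340 (3.57-fold lower, adjusted p = 0.00015). Its similar neighbours AT2G04070 and DTX1 were 4.44-fold and 1.91-fold lower. The glucosyltransferase gene DOGT1 fell 2.47-fold, CYP81D8 2.01-fold and the vacuolar transporter gene ABCC3 1.54-fold. All of these had no overlap between the groups.

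Ribosomal protein genes were examined as a family. The family was taken by product name after values had been seen and covers cytosolic and organellar proteins. Of 346 tested genes of 377 annotated 176 fell and none rose (50.9% against 7.84% of all genes), with a median change of -0.36 and 320 of 346 changes negative. The median level of the family on the log2 scale was 10.57, 10.71, 11.25 and 11.10 at 0 h and 10.35, 10.33, 10.58 and 10.83 at 12 h. Lane 2 lay above lane 1 in both groups, so the pooled groups overlapped, while within each lane both 12 h libraries lay below both 0 h libraries.

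The number of falls differed between fits. The median change was -0.33 in lane 1 and -0.41 in lane 2, but 36 falls were called without the lane term, 1 in lane 1 alone, 86 in lane 2 alone and 106 in the wild-type libraries alone with the lane term. Leaving out 1 library at a time gave 123 to 189 falls. Short genes as a whole moved slightly down: outside the family the median change was -0.07 in the shortest of 5 length classes and 0.06 in the longest, and the median ribosomal gene measured 1580 bp against 2381 bp for all tested genes. The part of gene length in the family's change was not tested beyond these values.

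AT4G25890, a 60S acidic protein, went from 436, 560, 989 and 1103 normalised reads to 322, 294, 524 and 584. The fall is visible within each lane but not across them (-0.80 ± 0.10, adjusted p = 7.6e-05). AT4G18100, protein L32e, went from 11860, 14660, 19230 and 21190 to 8523, 9211, 11250 and 11650, without overlap (adjusted p = 0.00015). AT5G23900, protein L13e, fell by 0.63 log2 units (adjusted p = 0.00036) and AT3G62870, of the L7Ae class, by 0.68 (adjusted p = 0.00038).

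Site II elements, searched as TGGGCC or TGGGCT on both strands, stood in the 300-base windows of 195 of 346 ribosomal protein genes (56.4%) and of 23.5% of all tested genes. The telo box, AAACCCTA, stood in 54 of them (15.6%) and in 4.38% of all. Both elements are known from genes of the translation machinery, and the shares were 64.2% and 19.3% among the 176 that fell and 48.2% and 11.8% among the 170 that did not. These shares were not tested against each other. The window of AT5G23900, chr5:8065551-8065850 on the minus strand, is printed since that gene had the smallest adjusted p among those that fell and hold both elements. Capitals mark the elements, all on the strand opposite to the gene.
AT5G23900: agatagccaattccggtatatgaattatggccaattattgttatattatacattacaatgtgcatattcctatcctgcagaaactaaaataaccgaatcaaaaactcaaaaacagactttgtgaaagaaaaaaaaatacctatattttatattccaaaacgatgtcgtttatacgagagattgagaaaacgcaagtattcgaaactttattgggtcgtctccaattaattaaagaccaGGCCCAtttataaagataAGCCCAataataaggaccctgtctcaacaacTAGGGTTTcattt

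Ribosomal RNA is processed in the nucleolus. Of 10 nucleolar genes assembled after values were seen 7 fell (70% against 7.84% of all tested genes). All 10 changes were negative, and the median was -0.47 (-0.32 in lane 1 and -0.58 in lane 2). FIB2, a fibrillarin that acts in RNA methylation, went from 1915, 2500, 2515 and 2911 to 1427, 1187, 1659 and 1672 (adjusted p = 0.00025). The nucleolin gene NUC-L1 went from 8223, 10570, 9569 and 12520 to 8177, 6907, 6846 and 6376 (adjusted p = 0.0077), and FIB1 and the H/ACA particle gene AT3G03920 fell 1.42-fold and 1.47-fold. The lane 1 fit called 0 falls among the 10 and the fit without a lane term 3.

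In the plastid, 8 of 15 genes for proteins associated with the plastid RNA polymerase fell (53.3% against 7.84% of all genes) and none rose, with a median of -0.46. The count of falls was 4 without the lane term, 0 in lane 1 alone and 4 in lane 2 alone. PTAC6 went from 1722, 2043, 1907 and 2080 to 1284, 1314, 1603 and 1361 (adjusted p = 0.0028), and PTAC14 and PTAC3 fell 1.40-fold and 1.37-fold, all 3 with no overlap. Of 28 photosynthesis genes 1 rose (3.57% against 6.68% of all tested genes) and 2 fell (7.14%, near the 7.84% of all tested genes).

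**Figure D4:**
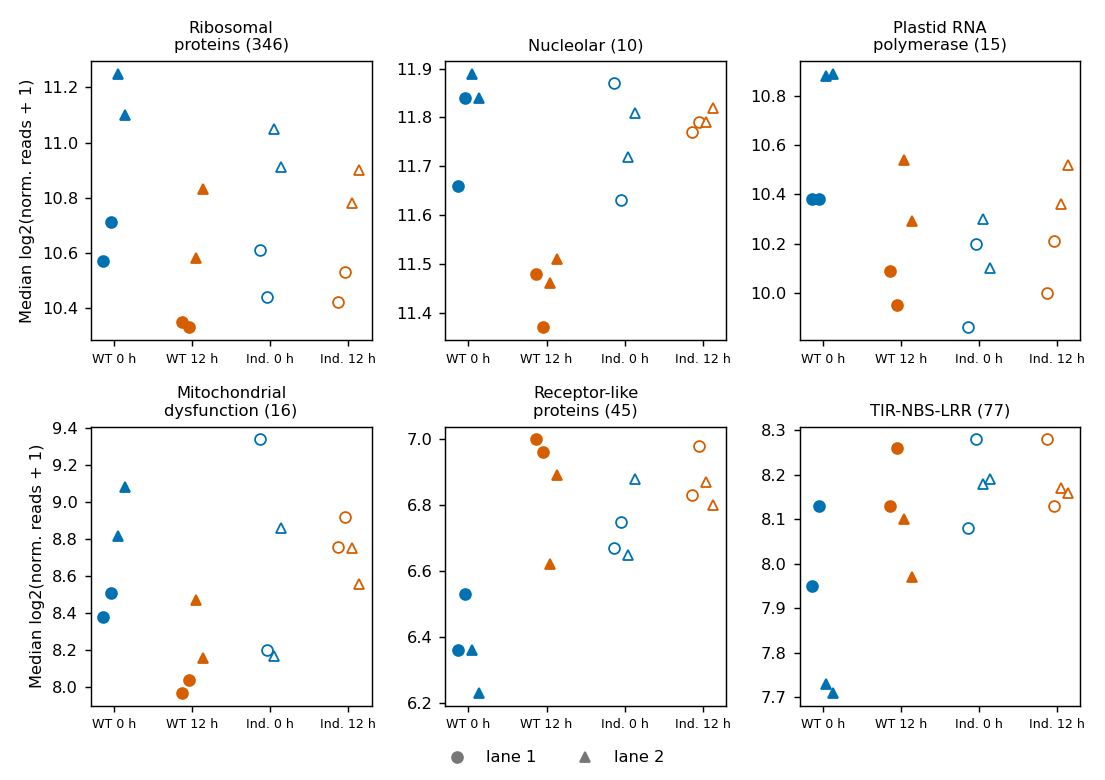
Median log2(normalised reads + 1) over the tested genes of 6 groups (number of genes in brackets) in each library of wild type (filled) and the inducible line (open), at 0 h (blue) and 12 h (orange), with circles for lane 1 and triangles for lane 2. Ribosomal protein medians fall within both lanes in wild type, from 10.57 to 11.25 at 0 h to 10.33 to 10.83 at 12 h, and each panel has its own axis, which does not start at 0.

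Of 13 genes that answer low sulfur 5 rose (38.5% against 6.68% of all tested genes) and none fell. Their median change was 0.50, with 0.53 in lane 1 and 0.28 in lane 2. LSU2, a low-sulfur response protein, went from 141, 199, 120 and 171 normalised reads to 380, 382, 301 and 321 (adjusted p = 6.5e-05). The sulfate transporter genes SULTR1;2, for uptake, and SULTR4;2, for release from the vacuole, rose 1.66-fold and 1.52-fold. Without replicate 4 at 12 h 3 rises were called, and without the lane term 2.

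Of 15 genes raised by nitrate 7 fell (46.7% against 7.84% of all tested genes) and none rose (median -0.36). G6PD3, which supplies reducing power for nitrite reduction, went from 1084, 1081, 1275 and 1342 to 628, 578, 750 and 696 (adjusted p = 4.8e-06). UPM1, an enzyme of the sirohaem cofactor, fell 1.64-fold, and the nitrate-responsive regulators LBD38, LBD39 and HRS1 fell 1.48-fold, 1.36-fold and 1.36-fold. Without the lane term 4 falls were called, and in lane 1 alone 1.

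Of 17 flavonoid genes 5 fell (29.4% against 7.84% of all tested genes) and 1 rose (5.88% against 6.68%), with a median of -0.59. The chalcone isomerase gene TT5 went from 1299, 742, 922 and 1169 to 620, 454, 681 and 644 (adjusted p = 0.0017), and the flavonol regulator gene MYB111 and the anthocyanin carrier gene GSTF12 fell 1.91-fold and 2.94-fold. The count of falls was 3 without replicate 1 at 0 h or without replicate 2 at 12 h, 8 without replicate 1 at 12 h, and 0 in lane 1 alone. In the pyrimidine breakdown pathway 2 of 4 genes rose (50% against 6.68% of all tested genes). PYD4, an aminotransferase of its last step, went from 16, 25.1, 29.9 and 19.1 to 113, 80.8, 114 and 180, a 5.16-fold rise with no overlap (adjusted p = 9.9e-06).

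Of 21 iron genes 3 fell (14.3% against 7.84% of all tested genes) and 1 rose (4.76% against 6.68%). The ferritin genes FER3 and FER4, which store iron, fell 1.49-fold and 1.51-fold, while the ferric reductase gene FRO3 rose 1.58-fold. On the list of darkness and sugar starvation 6 of 29 genes fell (20.7% against 7.84%) and 3 rose (10.3% against 6.68%), with a median of -0.06. AT2G20670 went from 6052, 3316, 3151 and 4984 to 810, 1480, 1337 and 781 (adjusted p = 0.00017) and PHI-1 from 156 ± 27.8 to 59.8 ± 13.2 (adjusted p = 0.00052). In the same list DIN2, a dark-induced glycosidase, rose 2.81-fold from a low level, with 3.43, 7.53, 9.62 and 7.43 at 0 h and 19.3, 19.4, 19.1 and 24.3 at 12 h, and GDH1, glutamate dehydrogenase, rose 1.43-fold. PPCK1, a kinase of phosphoenolpyruvate carboxylase, and ACD1, an enzyme of chlorophyll breakdown, rose 1.76-fold and 1.82-fold.

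Of 29 listed genes of the circadian clock 3 rose (10.3% against 6.68% of all tested genes) and 3 fell (10.3% against 7.84%). These shares are near those of all tested genes, and the median change was -0.01, so the genes named next do not describe the list. RVE1, a morning-phased MYB factor, went from 486, 493, 359 and 354 normalised reads to 244, 240, 181 and 191 (adjusted p = 4.6e-05), and RVE2 fell 1.46-fold. GI, an evening gene, went from 568, 694, 686 and 644 to 1005, 972, 898 and 939 (adjusted p = 0.00071), and PRR7 and LNK1 (AT5G64170) rose 1.60-fold and 1.41-fold. The groups of these genes did not overlap, and the changes of all 29 lay between -0.97 and 0.68.

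The share of called genes was 15.8% on the auxin list, 26.3% on the brassinosteroid list and 20% on the ethylene list, against 14.5% of all tested genes. Of 19 auxin genes 3 fell, among them IAA5, an Aux/IAA repressor that auxin induces, which went from 30.9, 42.7, 19.2 and 34.0 to 5.67, 3.07, 7.03 and 3.74 (adjusted p = 0.00013), and HAT2, 2.02-fold lower. Of 19 brassinosteroid genes 4 fell and 1 rose: EXPA8, an expansin, and BEE2 fell 2.95-fold and 1.71-fold, and the synthesis gene BR6OX2 rose 1.57-fold. ACS6, an ethylene synthesis enzyme, was 1.78-fold lower among 15 ethylene genes with 2 falls and 1 rise.

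No jasmonate gene of 26 was called, with a median change of 0.25 and changes up to 1.72, and 22 of the 26 changes were positive. At an unadjusted p under 0.05 limma had 5 of the 26, and after adjustment edgeR called 0 and DESeq2 3. Heat-shock genes gave 3 rises (15.8% against 6.68% of all tested genes) and 2 falls (10.5% against 7.84%) of 19. GolS1, galactinol synthase, went from 70.9, 87.0, 82.3 and 105 to 217, 135, 237 and 228 (adjusted p = 0.0002), and HSP17.6A from 3.43, 5.86, 9.62 and 13.8 to 44.2, 11.2, 106 and 45.8 (adjusted p = 0.0022), where 1 library at 12 h lay within the range at 0 h.

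Of 15 stomatal lineage genes none rose and 2 fell (13.3% against 7.84% of all tested genes, median -0.16). The fit of the wild-type libraries alone with the lane term called 0 falls among them. ICE1, the partner factor of SPCH, went from 922, 1004, 870 and 1040 to 762, 794, 754 and 686 (-0.35 ± 0.08, adjusted p = 0.0084). ER, the ERECTA receptor kinase, had 847 ± 39.1 and 654 ± 94.7 (adjusted p = 0.024). The call of ER was lost when replicate 3 or 4 at 0 h, or replicate 1 or 3 at 12 h, was left out (highest adjusted p = 0.078). None of 20 mitotic genes was called, and their median change was -0.08. Among these 20, limma had 2 at an unadjusted p under 0.05, edgeR called 0 and DESeq2 1.

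The same interval was then compared with the inducible line, in which 1921 genes were called (9.26%). The difference of the changes, wild type minus inducible line, was called in 586 genes (2.82%), a count that fell to 106 without the lane term, 3 in lane 1 alone and 117 in lane 2 alone. Between the lines 624 genes were called in the same direction, 257 up and 367 down, which is 20.7% of the wild-type calls and 32.5% of the inducible-line calls. In 25 genes the calls went in opposite directions. Of the 3014 genes called in wild type the change differed in 240 (7.96%), 104 that rose and 136 that fell.

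The leading low-oxygen, touch and pattern genes had similar values in the inducible line. HRA1 (AT3G10040) changed by -3.48 there, LBD41 by -2.90, AT4G10265 by -4.83, ERF105 (AT5G51190) by -2.68 and CML38 by -2.83. For these genes no difference was called (adjusted p = 0.58 to 0.99). Of the 51 low-oxygen members 22 fell in the inducible line, where 6.04% of all tested genes fell, and 3 rose, and the change differed between the lines in 7, including the members AT3G13310 (difference 1.17, adjusted p = 0.013) and AT2G15880 (1.88, adjusted p = 0.0083), which rose in wild type and were not called in the other line.

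Of the 346 ribosomal protein genes 4 fell in the inducible line, and their median change there was -0.09. A smaller count in 1 line does not show a difference, and the difference itself was called in 12 of the 346 genes, against 2.82% of all genes. FIB2 changed by 0.17 in the inducible line, a difference of -0.89 (adjusted p = 0.0036). Among receptor-like proteins the difference was called in 3 of 45, and among TIR-NBS-LRR genes in none of 77 (limma), while the latter had 19 rises in wild type, where 6.68% of all tested genes rose, and 3 in the inducible line, where 3.22% did. For the difference in those 77 genes limma had 17 at an unadjusted p under 0.05, edgeR called 0 and DESeq2 3.

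Genes with the smallest adjusted p for the difference, among those called in wild type, mostly moved little in wild type. AT3G14760 changed by -0.46 in wild type and 1.53 in the inducible line (difference -1.99, adjusted p = 1.5e-05). AT1G72140, a major facilitator transporter, changed by 0.50 and -1.33 (difference 1.84, adjusted p = 2.6e-05), ICE1 by -0.35 and 0.71 (-1.07, adjusted p = 5.8e-05) and AT2G44230 by -0.48 and -1.77 (1.29, adjusted p = 0.00089). These differences kept their call when any 1 library was left out. The wild-type calls of AT3G14760, AT1G72140 and AT2G44230 were lost in 5, 2 and 2 of the 16 such fits, with highest adjusted p of 0.097, 0.058 and 0.053: for all 3 without replicate 4 at 0 h, for AT3G14760 also without replicate 2 or 3 at 0 h, for AT3G14760 and AT2G44230 without replicate 1 at 12 h, and for AT3G14760 and AT1G72140 without replicate 4 at 12 h. ICE1's relative SCRM2 had a difference of -1.02 (adjusted p = 0.0013) and was not called in wild type (adjusted p = 0.056), like the mitotic cyclin gene CYCB1;1 (difference -1.05, adjusted p = 0.012).

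Among genes that rose in wild type, SULTR1;2 rose by 0.73 in wild type and fell by 0.69 in the inducible line (difference 1.42, adjusted p = 0.0049). CYP71B22 rose by 1.59 in wild type, and its change in the inducible line was 0.45 and not called (difference 1.15, adjusted p = 0.0098). RLP19 had a difference of 0.97 (adjusted p = 0.027). Of the 27 named genes whose change differed, 13 kept that call in each of the 16 fits without 1 library, and RLP19 was not among them.

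**Figure D5:**
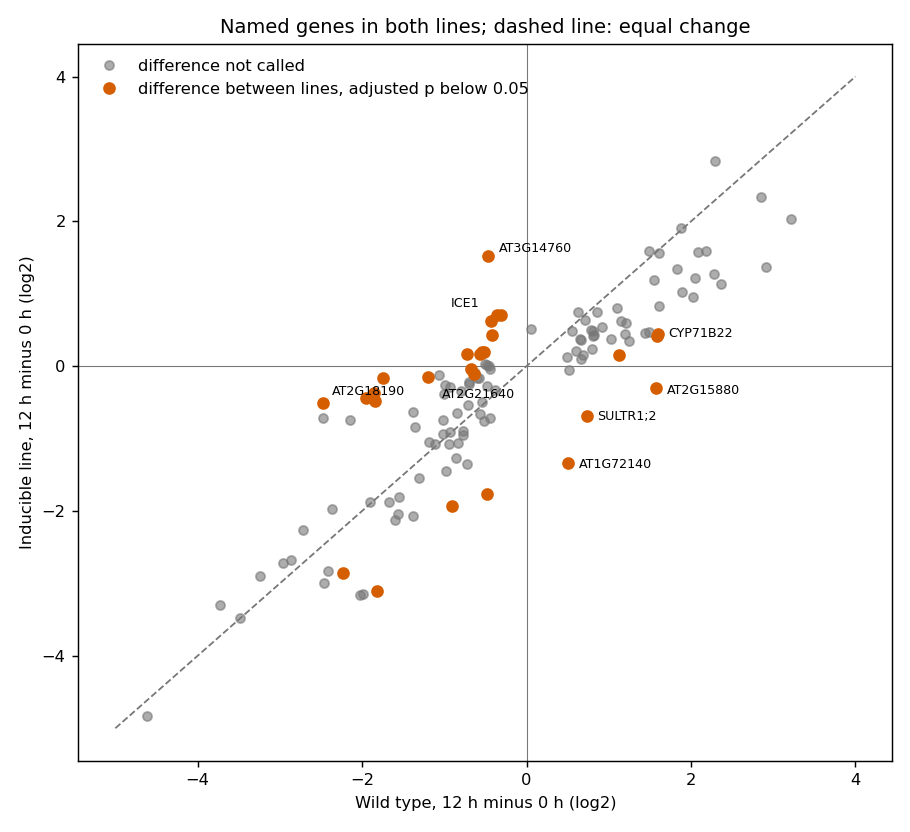
Change from 0 h to 12 h (log2) of the named genes in wild type (horizontal) and in the inducible line (vertical), with orange points where the difference between lines was called and a dashed line at equal change. The genes with the largest falls lie near the dashed line, AT4G10265 at -4.61 and -4.83, while AT2G18190 lies at -2.48 in wild type and -0.50 in the inducible line.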

How the data were processed

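Polyadenylated RNA of whole seedlings was sequenced in 16 libraries, and the 8 wild-type libraries are compared here. The authors' deposited values are a signal: reads per gene divided by 1 size factor per library. Tools listed by the submitters' processing notes are HTSeq, TopHat, DESeq2 and SAMtools, with the build TAIR10 and no versions. How strand and multiple alignments were handled is not given in the sources used here. Dividing by the smallest step of each library gave whole reads for 100% of values (tolerance 0.001 read), so read counts were recovered, with totals of 16251477 to 22944391. Of 33602 deposited genes 32835 matched RefSeq (TAIR10.1) by locus, which supplied symbols, products and promoter windows.

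The plan was followed with limma 3.58.1 (R 4.3.3) on log2(value + 1), with trend and robust moderation, group means and a lane term over all 16 libraries, for 20756 genes with at least 10 in at least 4 libraries. Folds on this scale understate changes of low genes. Alternatives were no lane term, the replicate number as a block, wild-type libraries alone, single lanes, each library left out, no filter, pseudocount 5, TMM, and edgeR 4.0.16 and DESeq2 1.42.0 on recovered reads. The wild-type fit without a lane term was added after seeing the data. The steps were tested on simulated counts. Same-numbered wild-type libraries deviated together (r = 0.56 to 0.61 over genes), as did other pairs of a lane (0.60 to 0.73). Genes named are SPCH, the 12 largest rises and 12 largest falls with a mean of at least 50 and no overlap, up to 4 members per list and 4 genes of the difference between lines. Further list and family members were named after their values were seen. Members and lists were chosen with earlier results of these data known. Of 605 list entries 603 matched. No 2 libraries of a group were identical. Some items are not reported here.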

Additional observations from a re-analysis of the deposited data

Results flagged for a closer look

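Each of 254 groups of 4 wild-type values of the 127 named genes was examined for a library far from the other 3, and 9 were found; chance gives about 1 such group in 20. AT5G35777 had 280.1 normalised reads in replicate 1 at 0 h against 95.09, 109.6 and 113.6, and 32.72 in replicate 2 at 12 h against 15.89 to 17.07. At 12 h AT4G10265 had 12.05 in replicate 3, DIN2 24.31 in replicate 4, and CYP71B20 1038 in replicate 2, each the highest of its group. Replicate 1 at 12 h was highest for DOGT1 at 398 and for LBD38 at 1702, and lowest for GDH1 at 1180. WRKY22 was lowest in replicate 2 at 12 h at 98.17 against 158.8 to 168.3.

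The change differed between the lines, by limma's test of the difference with Benjamini-Hochberg adjustment, in 27 named genes. The values are the wild-type change minus the inducible-line change in log2 units. They were positive for AT2G15880 at 1.88, AT1G72140 at 1.84, SULTR1;2 at 1.42, AT2G44230 at 1.29, AT3G23170 at 1.28, AT3G13310 at 1.17, CYP71B22 at 1.15, WRKY22 at 1.03, RLP19 at 0.97 and AT5G21940 at 0.62. They were negative for AT3G14760 at -1.99, AT2G18190 at -1.97, AT5G13210 at -1.57, AT2G18193 at -1.51, SRO3 at -1.48, AT2G04050 at -1.36, ICE1 at -1.07, AT2G21640 at -1.06, CYCB1;1 at -1.05 and SCRM2 at -1.02. The remaining negative differences were -0.89 for FIB2, -0.85 for NAC13, -0.74 for AOX1A, -0.73 for AT3G03920, -0.72 for NUC-L1, -0.64 for AT3G62870 and -0.53 for AT5G23900. Of the 27, 14 lost the call in at least 1 of the 16 fits without 1 library.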

How the results depend on the processing

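Against 3014 genes called in wild type, separate fits, whose calls need not be the same genes, called 980 without the lane term, 1570 in the wild-type libraries alone with it, 315 in those libraries without it (chosen after seeing the data), 187 in lane 1 and 1140 in lane 2. Leaving out 1 library gave 1819 (replicate 4 at 12 h) to 4134 (replicate 1 at 0 h). With the replicate number as a block in place of the lane, 2751 were called, and 518 for the difference between lines. For that difference the count was 586, and 106 without the lane term, 3 in lane 1, 117 in lane 2 and 1224 with DESeq2. Leaving out 1 library gave 234 (inducible line, replicate 2 at 12 h) to 1934 (wild type, replicate 1 at 0 h), with 264 without replicate 4 at 0 h of the inducible line, and 369, 338, 288 and 283 without wild-type replicates 3 and 4 at 0 h and 2 and 4 at 12 h. Of 204 named or listed genes called in wild type, 70 lost the call without the lane term, 8 under the block, 146 in lane 1, 98 in lane 2, 1 with edgeR, and none with TMM scaling, pseudocount 5 or DESeq2. None of the 204 changed sign in any of these fits. Single lanes hold 2 libraries a group, so fewer calls there follow partly from fewer samples.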

Other observations

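Counts follow for some of the lists and families not described above. Of 12 plasma membrane aquaporin genes, which encode water channels, 4 fell (33.3% against 7.84% of all tested genes) and none rose, with a median change of -0.23. The count of falls was 1 without the lane term, 0 in lane 1 alone and 2 without replicate 3 at 0 h. Of 204 tested pentatricopeptide repeat genes, whose proteins process organelle RNA, 19 fell (9.31%, near the 7.84% of all tested genes) and 3 rose (1.47% against 6.68%). Their median change was -0.11, and the count of falls was 6 without the lane term. It was 10 without replicate 4 at 0 h, 12 without replicate 2 at 12 h and 11 without replicate 4 at 12 h. Of 12 indolic glucosinolate genes 2 rose (16.7% against 6.68%). Of 13 aliphatic glucosinolate genes none was called by limma, with 4 at an unadjusted p under 0.05, 0 called by edgeR and 1 by DESeq2. Of 18 endoplasmic reticulum stress genes 2 rose (11.1% against 6.68%, median 0.13).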
